A study of Rattus norvegicus with 32 samples.

Results

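The genes that write, erase and read DNA methylation were followed in the hippocampus of rats at P65. The 9 genes were taken by symbol from both tables of raw counts, out of 32883 genes in all: Dnmt1, Dnmt3a, Tet1, Tet2, Tet3, Mbd1, Mbd2, Uhrf1 and Gadd45b. Each symbol had 1 entry, and all 9 genes passed the filter on low counts in every comparison. RNA was sequenced from 32 Sprague-Dawley rats, 4 of each sex in each of 4 diet groups. IS rats were always iron-sufficient. ISch rats were iron-sufficient with prenatal choline. FID rats (labelled ID) were born to dams on an iron-deficient diet, and the study describes its males as iron-repleted at P65. FIDch rats (labelled IDch) were formerly iron-deficient with prenatal choline. For the study's own male rats, the methods give 4 against 200 mg of iron per kg of maternal diet from G2 to P7, and 5 against 1.1 g of choline per kg during G11 to G18. The methods also state that each experiment took 1 male per litter. They took the RNA data from an earlier study, and whether littermates were among the rats sequenced here is not given in the sources used here. The diets differed only before and shortly after birth, weeks before the tissue was taken.

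The male libraries form sequencing batch I and the female libraries batch II, and RNA was extracted with a different kit for each sex, so sex, batch and kit cannot be told apart. Totals were 3515806 to 9517503 counts per male library and 18439999 to 26616318 per female library, with the lowest total in male FIDch replicate 2. The hippocampal label was checked with 3 dentate gyrus markers, and their summed level was 173 to 226 CPM (counts scaled to library size) in males and 185 to 305 in females. Choroid plexus markers were at 399 CPM in male FID replicate 4 and at 18.1 CPM in female FID replicate 3. None of the 9 genes was called in a comparison with male FID. In whole tissue, fewer cells of a type and less RNA per cell cannot be told apart.

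DNA methylation adds a methyl group to cytosine, mostly where cytosine precedes guanine (CpG). Dnmt3a methylates new sites, Dnmt1 copies the mark after replication, and Uhrf1 recognises hemimethylated DNA and brings Dnmt1 to it. The TET enzymes oxidise 5-methylcytosine and depend on iron and 2-oxoglutarate, and choline is a source of methyl groups through betaine. Mbd1 and Mbd2 bind methylated DNA and recruit repressors. Gadd45b is an activity-induced gene of mature hippocampal neurons that has been linked to demethylation of promoters. RNA abundance was measured here, and neither the mark nor the enzymes' activity was.

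The promoters of 5 of these genes are printed because Gadd45b, Dnmt3a and Tet3 met the study's criterion in a comparison, and because Dnmt3a and the 3 TET genes varied together from rat to rat. The windows run from 250 bases before to 50 bases after a gene's start in RefSeq's annotation of build GRCr8, 5′ to 3′ on the gene's strand, with every CpG in capitals. Where RefSeq gave several starts, the window with the most CpG is shown. The 9 genes had 16 such windows with 3 to 39 CpG, and the median of all 33469 windows was 7.
Gadd45b, chr7:9430669-9430968, minus strand: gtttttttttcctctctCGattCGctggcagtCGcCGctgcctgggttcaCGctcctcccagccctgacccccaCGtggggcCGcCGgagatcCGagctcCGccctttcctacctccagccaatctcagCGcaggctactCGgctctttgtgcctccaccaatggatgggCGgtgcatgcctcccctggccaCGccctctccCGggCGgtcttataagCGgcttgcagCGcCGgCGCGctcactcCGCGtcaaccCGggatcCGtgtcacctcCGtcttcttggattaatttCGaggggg
Dnmt3a, chr6:32598352-32598651, plus strand: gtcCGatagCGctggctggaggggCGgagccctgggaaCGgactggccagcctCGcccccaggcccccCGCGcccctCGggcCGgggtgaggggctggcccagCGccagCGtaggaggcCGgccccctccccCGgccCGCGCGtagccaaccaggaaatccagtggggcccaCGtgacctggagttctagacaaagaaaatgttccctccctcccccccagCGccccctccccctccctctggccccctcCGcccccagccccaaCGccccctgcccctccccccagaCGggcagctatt
Tet1, chr20:25781119-25781418, plus strand: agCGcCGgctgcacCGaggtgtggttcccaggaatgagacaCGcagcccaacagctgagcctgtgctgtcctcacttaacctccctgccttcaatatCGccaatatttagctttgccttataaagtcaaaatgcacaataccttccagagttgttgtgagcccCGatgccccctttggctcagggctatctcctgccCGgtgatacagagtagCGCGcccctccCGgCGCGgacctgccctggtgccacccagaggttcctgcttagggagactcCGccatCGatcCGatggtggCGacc
Tet2, chr2:224746137-224746436, minus strand: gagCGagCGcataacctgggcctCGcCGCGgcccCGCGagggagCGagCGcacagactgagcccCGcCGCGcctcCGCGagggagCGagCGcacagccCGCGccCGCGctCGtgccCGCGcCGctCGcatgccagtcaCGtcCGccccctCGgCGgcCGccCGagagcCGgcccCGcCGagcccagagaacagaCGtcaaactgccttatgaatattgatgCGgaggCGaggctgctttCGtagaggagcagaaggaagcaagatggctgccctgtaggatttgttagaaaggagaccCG
Tet3, chr4:117520996-117521295, minus strand: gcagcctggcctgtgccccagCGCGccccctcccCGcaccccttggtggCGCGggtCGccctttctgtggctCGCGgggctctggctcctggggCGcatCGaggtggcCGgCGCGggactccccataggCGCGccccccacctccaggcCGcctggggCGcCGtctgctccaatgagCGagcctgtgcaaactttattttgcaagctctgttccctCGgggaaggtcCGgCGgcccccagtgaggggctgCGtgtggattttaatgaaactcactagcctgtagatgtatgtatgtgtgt

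The printed windows were picked for their CpG, so their counts are a description of those windows alone. In the windows not shown, Tet1 had 3 and 4 CpG and Tet3 had 15, 3 and 3. The Gadd45b window held 27, and 13.9% of all windows held as many. The Dnmt3a window held 21 (22.6% of windows held as many), the Tet3 window 23 (19.5%), the Tet1 window 16 (30.5%) and the Tet2 window 39 (3.76%). The cAMP response element TGACGTCA was searched on both strands, together with its core TGACG, which the longer motif contains. The full element was in none of the 16 windows and in 1.83% of all windows. The core was in 4 of the 16 windows, beside 21.2% of all windows, a like share. These were the Gadd45b and Tet2 windows, with 1 match each, and a pair of Tet3 windows not shown, which lie 1 base apart and held 2 matches each. The counts were made on Rnor 6.0, so these positions apply to GRCr8 alone.

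Across the 10 pairwise comparisons, 4 of the 90 tests on the 9 genes met the study's criterion: a log2 fold change beyond 0.2 in either direction, with an unadjusted p under 0.05. None of the 90 had a Benjamini-Hochberg adjusted p under 0.05 in edgeR's quasi-likelihood test, and the lowest was 0.0821. DESeq2 gave 1 adjusted p under 0.05, for Gadd45b in female ISch against IS. At the study's criterion 4.57 to 13% of all genes were called per comparison, so 4 of 90 tests is no more than the background. The 4 calls were in females, where the background was 4.57 to 12.7%, beside 4.62 to 13% in males. Over all genes, the share with an adjusted p under 0.05 was 0.208% in male ISch, 0% in male FID and 0.131% in male FIDch against IS, 1.28% in male FIDch against FID and 0.043% in male FIDch against ISch. In male FID against IS, 787 genes had an unadjusted p under 0.05. The female shares in the same order were 2.54, 0.191, 0.907, 2.28 and 0.00689%. Those against IS share the IS rats, and the calls in ISch against IS and in FIDch against ISch share the ISch rats. Levels were compared between groups and not between genes, since gene lengths were not used here.

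Dnmt1, the maintenance methyltransferase, was steady. In males it stood at 39.1, 45.6, 40.4 and 45.9 CPM in IS, 45.4, 45.8, 41.5 and 47.3 in ISch, 41.8, 44.7, 48.2 and 41.2 in FID, and 49.9, 47.1, 43.7 and 47.3 in FIDch. The 16 females lay between 39.6 and 46.1 CPM, with group means of 42.6 to 43.4. The 4 groups overlapped in both sexes. The largest of its 6 differences against IS was in male FIDch, with a log2 fold change of 0.14 (SE 0.08, unadjusted p = 0.114, adjusted p = 0.709).

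Dnmt3a, the de novo methyltransferase, was lower in female FIDch than in female FID at the study's criterion. It was 25.8, 25.0, 23.4 and 25.4 CPM in the 4 FID females and 22.2, 20.9, 25.3 and 17.3 CPM in the 4 FIDch females. The 3 lowest of these 8 rats were FIDch, but FIDch replicate 3 lay within the FID range. The means were 24.9 ± 1.05 and 21.4 ± 3.29 CPM (SD, n = 4), a log2 fold change of -0.22 (SE 0.10, unadjusted p = 0.0483, adjusted p = 0.273). The exact permutation test gave p = 0.0857, two-sided. The background in this comparison was 12.7% of all genes tested, beside 1 of the 9 genes here. The same groups did not overlap in 3 of the summed cell marker levels and overlapped in the rest. Of all single genes tested, 11.9% did not overlap in this comparison. Oligodendrocyte precursor markers were at 133 to 137 CPM in FID and 105 to 123 in FIDch, microglial markers at 162 to 179 and 148 to 153, and dentate gyrus markers at 195 to 218 and 242 to 285. Their part in the Dnmt3a difference was not tested. The call was kept in 3 of 14 alternatives and lost when any of 7 of the 8 rats was left out.

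In the other female groups Dnmt3a was 21.8, 25.0, 22.1 and 26.6 CPM in IS and 27.3, 23.3, 25.3 and 19.8 in ISch. In males it was 14.9, 23.9, 27.8 and 24.1 CPM in IS, 29.0, 24.4, 24.8 and 28.4 in ISch, 27.9, 18.7, 25.5 and 25.7 in FID, and 22.1, 29.3, 25.0 and 33.2 in FIDch. The male groups overlapped, and IS replicate 1 was the lowest of all 16 males. The male FIDch mean was 27.4 ± 4.88 CPM against 22.7 ± 5.50 in IS (SD, n = 4), a log2 fold change of 0.27 (SE 0.17, adjusted p = 0.735). For FIDch against IS, the female change was 0.42 lower than the male change on the log2 scale (SE 0.22, unadjusted p = 0.0744, adjusted p = 0.407), which did not pass edgeR's quasi-likelihood test.

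**Figure D1:**
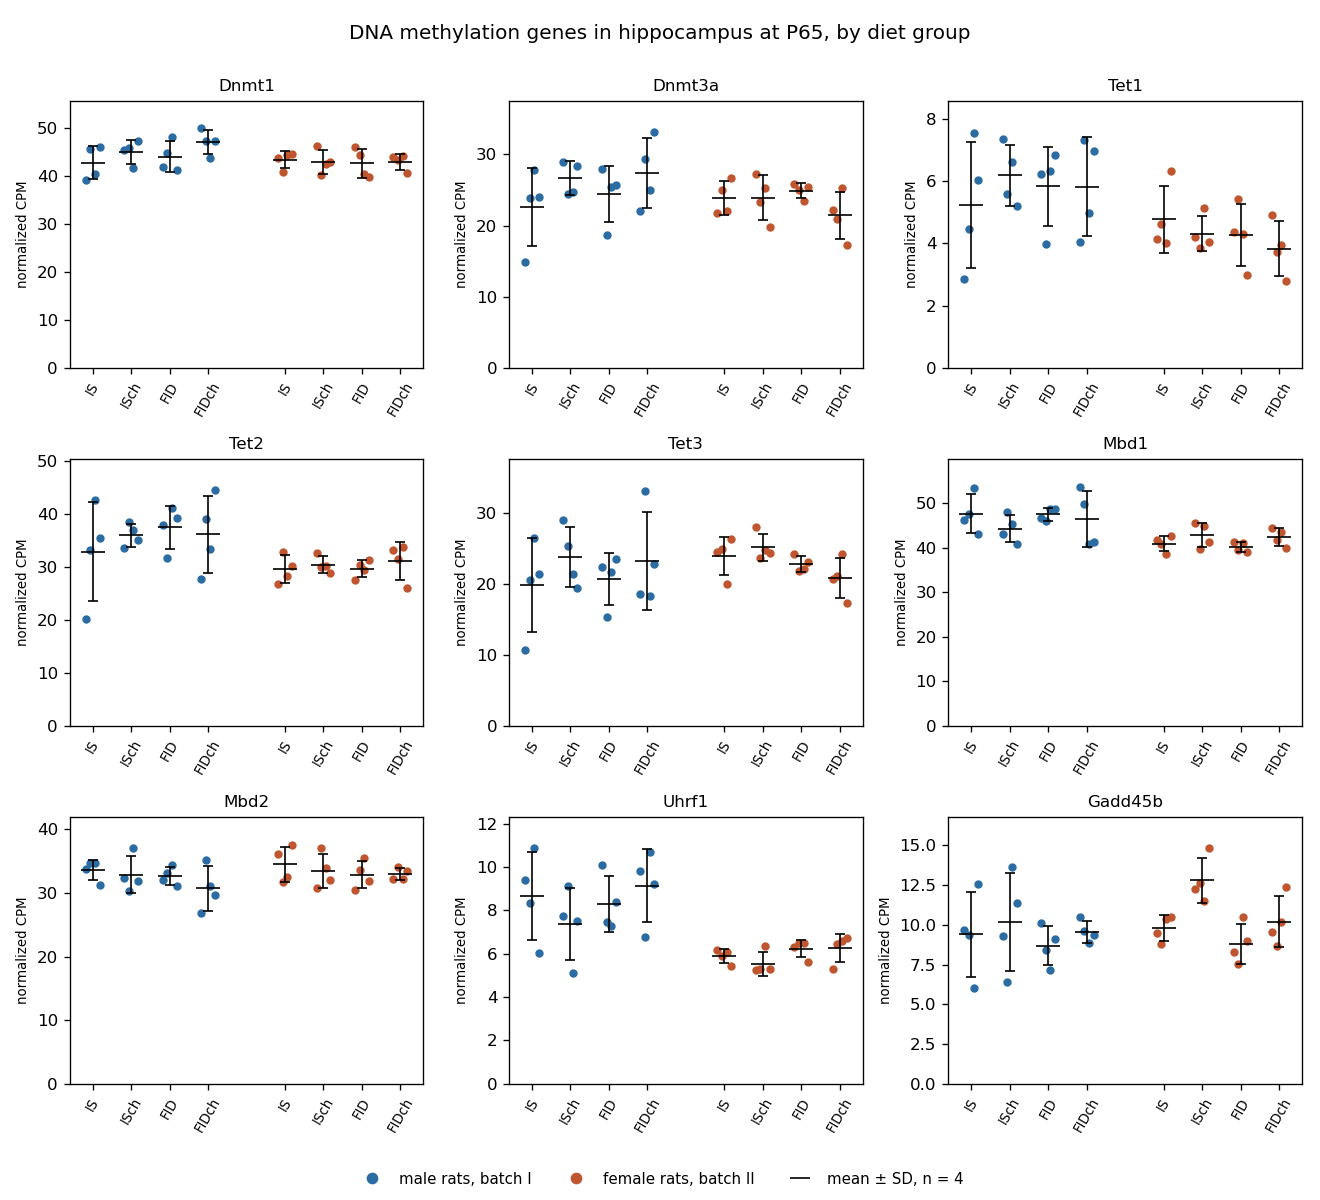
Normalized CPM of the 9 genes, 1 panel a gene, for male rats of batch I on the left of each panel and female rats of batch II on the right. Points are rats, and lines are the mean ± SD of 4 rats. Gadd45b in female ISch, at 11.5 to 14.8 CPM, lies above the female IS rats at 8.77 to 10.5 CPM.

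Of the TET genes, Tet3 was lower in female FIDch than in female ISch at the study's criterion. It was 27.9, 23.7, 24.8 and 24.3 CPM in ISch and 20.6, 21.1, 24.2 and 17.3 CPM in FIDch. Only FIDch replicate 3 reached into the ISch range. The means were 25.2 ± 1.91 and 20.8 ± 2.80 CPM (SD, n = 4), a log2 fold change of -0.27 (SE 0.10, unadjusted p = 0.0191, adjusted p = 0.580). The exact permutation test gave p = 0.0571, two-sided. In this comparison 2 of the 9 genes were called, beside 4.57% of all genes tested. The call was lost without ISch replicate 1 (the highest of the 8) and without FIDch replicate 4 (the lowest).

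Tet3 was 24.5, 24.9, 20.02 and 26.2 CPM in female IS and 24.2, 21.7, 22.1 and 23.0 CPM in female FID. Female FIDch against IS gave a log2 fold change of -0.20 (SE 0.11, unadjusted p = 0.0957, adjusted p = 0.469). In males Tet3 spread more widely, at 10.7, 20.6, 26.5 and 21.4 CPM in IS, 29.0, 25.3, 21.4 and 19.4 in ISch, 22.4, 15.3, 21.6 and 23.5 in FID, and 18.5, 33.0, 18.3 and 22.8 in FIDch. The male groups overlapped throughout. The male ISch change was 0.27 on the log2 scale (SE 0.21, adjusted p = 0.671).

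Tet2 was not called in any comparison. In males it was 20.2, 33.2, 42.5 and 35.4 CPM in IS, 33.4, 38.3, 36.9 and 35.0 in ISch, 37.9, 31.7, 41.0 and 39.2 in FID, and 27.6, 38.9, 33.2 and 44.5 in FIDch. The 16 females lay between 25.9 and 33.6 CPM, with group means of 29.5 to 31.0. The male FID change against IS was 0.19 on the log2 scale (SE 0.17, adjusted p = 0.827), and the female one was 0.00 (SE 0.07, adjusted p = 0.995).

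Tet1 had the fewest counts of the 3, with 23 to 61 per male library and 60 to 151 per female library. Its female means were 4.78 ± 1.08 CPM in IS, 4.31 ± 0.57 in ISch, 4.28 ± 1.01 in FID, with 3.84 ± 0.87 in FIDch (SD, n = 4). All 4 female groups overlapped. Female FIDch against IS gave a log2 fold change of -0.32 (SE 0.20, adjusted p = 0.539), the lowest of the 9 genes in that comparison, where 8.98% of all genes were called. Its 4 male means were 5.23 to 6.20 CPM, and none of the male differences was called.

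Uhrf1, the partner of Dnmt1, was low in both sexes and not called in any comparison. In males it was 9.42, 8.34, 10.9 and 6.05 CPM in IS, 7.72, 9.14, 5.13 and 7.52 in ISch, 10.1, 7.45, 7.28 and 8.39 in FID, and 9.83, 6.77, 10.7 and 9.22 in FIDch. The male ISch mean was the lowest and the male FIDch mean the highest, and their ranges overlapped. FIDch against ISch gave a log2 fold change of 0.34 (SE 0.17, unadjusted p = 0.0713, adjusted p = 0.410). The 16 females lay between 5.23 and 6.71 CPM. In RefSeq, Uhrf1 overlaps the protein-coding gene Arrdc5. How the counting treated strand is not given in the sources used here, so reads of the pair may have been shared. Dnmt3a, Tet1, Tet3 and Mbd2 each overlap a long non-coding RNA there, with the same uncertainty.

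Proliferation genes stood beside Dnmt1 and Uhrf1 as a list of 9, because both serve replicating cells. Their summed level was 45.5 to 57.6 CPM in males and 40.6 to 51.7 in females. In female ISch against IS, Mcm3 and Mki67 were called lower, with log2 fold changes of -0.53 and -0.77, and the other 7 were not called. Over all genes, 10.3% were called there. Uhrf1 in that comparison gave -0.09 (SE 0.11, adjusted p = 0.748).

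The readers did not separate the diets. Mbd1 was 38.5 to 45.5 CPM in the 16 females and 40.9 to 53.7 in the 16 males. Mbd2 was 30.5 to 37.6 CPM in females and 26.9 to 37.0 in males. Neither was called in any comparison, and all 4 groups overlapped for both genes in both sexes. The most negative Mbd2 change was in male FIDch against IS, at -0.14 on the log2 scale (SE 0.10, adjusted p = 0.748), and the most negative Mbd1 change against IS was in male ISch, at -0.10 (SE 0.08, adjusted p = 0.678).

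**Figure D2:**
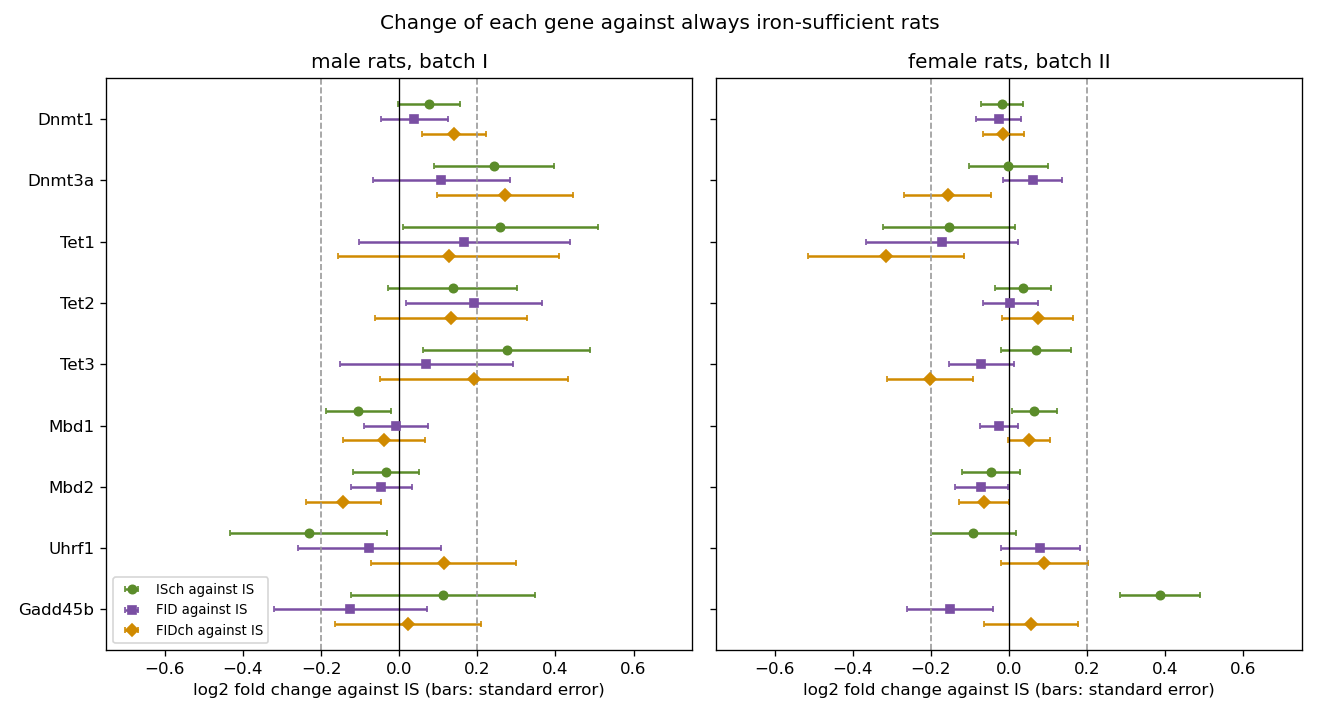
Log2 fold change of each gene against IS in males and females, with the standard error as a bar and dashed lines at -0.2 and 0.2, the size limit of the study's criterion. All 27 male estimates lie between -0.23 and 0.27 with no call, and female Gadd45b in ISch lies at 0.39, the only call of the 54 shown.

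Gadd45b (ENSRNOG00000019822) gave the lowest p of the set, in female ISch against IS. It was 9.49, 8.77, 10.4 and 10.5 CPM in the 4 IS females and 12.3, 12.6, 11.5 and 14.8 CPM in the 4 ISch females. Each ISch rat was above every IS rat. The means were 9.79 ± 0.81 and 12.8 ± 1.42 CPM (SD, n = 4), a log2 fold change of 0.39 (SE 0.10), or 30.6% more. The unadjusted p was 0.00309 and the adjusted p 0.0821 in edgeR's quasi-likelihood test. The exact permutation test gave p = 0.0286, two-sided, the smallest that 4 against 4 allows. Adjusted over the 90 exact tests of the 9 genes and 10 comparisons, the lowest p was 0.915. At the study's criterion 10.3% of all genes were called in this comparison, and in 10.1% the 4 and 4 values did not overlap, so 1 of 9 genes is close to the background share.

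The female FID rats stood at 8.27, 7.53, 10.5 and 8.98 CPM for Gadd45b and the female FIDch rats at 9.53, 8.64, 10.2 and 12.4 CPM. Both groups overlapped IS, and FIDch replicate 4 alone lay within the ISch range. FIDch was lower than ISch at the study's criterion, with a log2 fold change of -0.33 (SE 0.13, unadjusted p = 0.0248, adjusted p = 0.592, exact permutation p = 0.0857). That call was lost without ISch replicate 4, FIDch replicate 1 or FIDch replicate 2. For any difference among the 4 female diets, Gadd45b was the 1 gene of the 9 called (unadjusted p = 0.00278, adjusted p = 0.0510), beside 22.5% of all genes. The iron by choline term, the difference between the choline changes in FID and in IS rats, was -0.18 for female Gadd45b (unadjusted p = 0.309, adjusted p = 0.814 in edgeR) and was not called.

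In males Gadd45b was 9.67, 9.35, 6.05 and 12.5 CPM in IS, 9.29, 6.41, 13.6 and 11.4 in ISch, 10.1, 8.39, 7.16 and 9.11 in FID, and 10.5, 9.59, 8.83 and 9.37 in FIDch. The groups overlapped, and the ISch males spanned almost the whole range of the batch. The male ISch change was 0.11 on the log2 scale (SE 0.24, adjusted p = 0.888). The female change minus the male change was 0.27 (SE 0.27, unadjusted p = 0.326, adjusted p = 0.664 in edgeR), so the ISch change was not shown to differ between the sexes. At 34 to 109 counts per male library against 144 to 300 per female library, the male estimates are the less precise.

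Gadd45b stood beside 13 immediate early genes, which neurons switch on within minutes of activity. In female ISch against IS, 7 of the 13 were called higher and none lower, beside 10.3% of all genes called in either direction. The median log2 fold change of the 13 was 0.35, where the median of all genes was -0.00. Egr2, a transcription factor of this class, was at 3.24 to 3.99 CPM in IS and at 8.06 to 9.93 CPM in ISch (log2 fold change 1.33, adjusted p = 0.000324). Its groups did not overlap, as in 10.1% of all genes. Egr1 gave 0.46 (adjusted p = 0.0114) and Nr4a1 0.44 (adjusted p = 0.0405). Egr4, Egr3, Junb and Arc met the study's criterion at 0.61, 0.25, 0.37 and 0.41, and the founding member Fos gave -0.03 and was not called. The summed level of the list was 476 to 518 CPM in IS, 557 to 705 in ISch, 503 to 573 in FID, with 408 to 638 in FIDch females.

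FIDch replicate 4, the female FIDch rat with the highest Gadd45b, also had the highest immediate early sum of its group, and the other 3 were at 408 to 441 CPM. In FIDch against ISch females, 6 of the 13 were called lower and none higher, beside 4.57% of all genes called in either direction. In males, none of the 13 was called in ISch, FID or FIDch against IS, beside 8.06, 4.62 and 6.12% of all genes. Their male sum was 326 to 611 CPM. With each group's mean removed, Gadd45b and the immediate early sum correlated across the 16 libraries of a batch at Pearson's r = 0.67 in males and 0.57 in females. For Dnmt3a and the 3 TET genes, the correlation with the immediate early sum was -0.59 to -0.73 in females and -0.07 to 0.04 in males. For Uhrf1 it was -0.73 in males and 0.23 in females, for Mbd1 -0.11 and -0.69, for Dnmt1 0.14 and -0.63, and for Mbd2 0.07 and 0.19. A correlation of similar or larger size was thus not particular to Gadd45b. These are descriptions over libraries that each supply both values.

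The same female comparison also differed in markers of dentate gyrus granule cells. Prox1, C1ql2 and Dsp, all 3 of the list, were called higher in ISch than IS, beside 10.3% of all genes called in either direction. Their log2 fold changes were 0.39, 0.51 and 2.87. Their summed level was 185 to 216 CPM in IS, 267 to 305 in ISch, 195 to 218 in FID, with 242 to 285 in FIDch females. With group means removed, Gadd45b and the dentate sum correlated at 0.62 over the 16 female libraries and at -0.14 over the 16 male ones. For female FIDch against IS, the Gadd45b log2 fold change was 0.06 (adjusted p = 0.886). In the same ISch rats the microglial markers P2ry12 and Cx3cr1 were called lower, with log2 fold changes of -0.41 and -0.23. Both entries of the blood marker Hba-a2 were called higher, at 0.52 and 0.50. These are single markers from longer lists, beside the same background of 10.3%. The summed microglial level overlapped between the groups, at 167.6 to 173.8 CPM in IS and 141.0 to 168.0 in ISch. The summed blood level also overlapped, at 85.7 to 204.5 CPM in IS and 148.8 to 257.3 in ISch. The part of these cell markers in the Gadd45b difference was not tested.

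**Figure D3:**
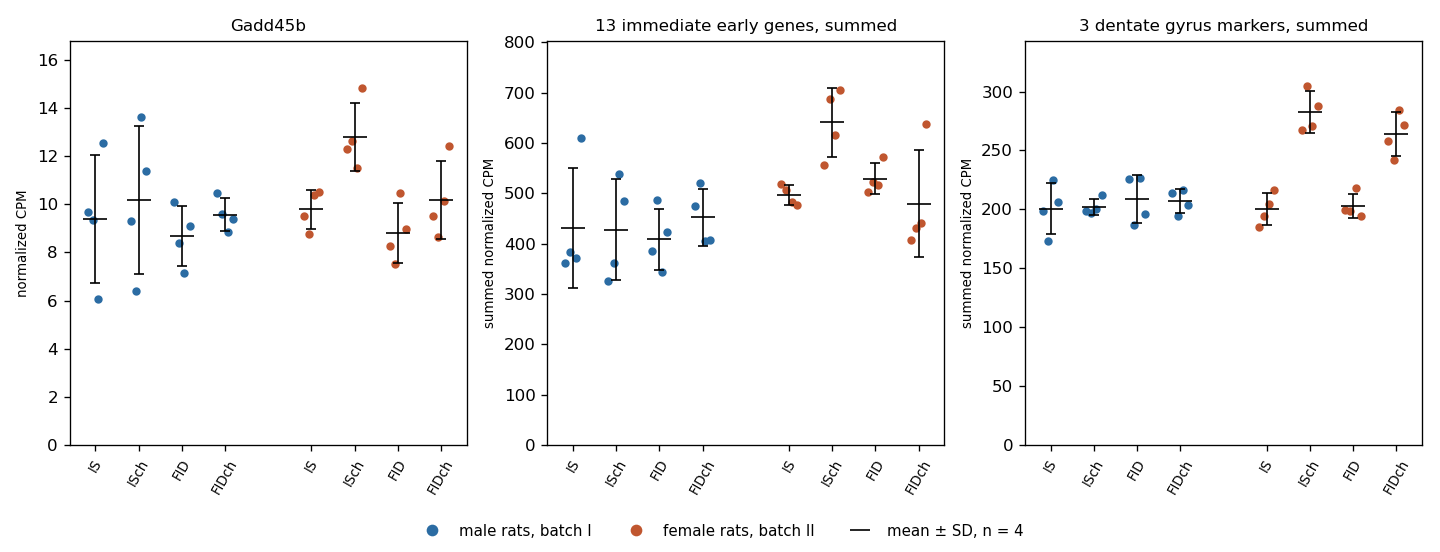
Gadd45b, the sum of 13 immediate early genes and the sum of 3 dentate gyrus markers, in normalized CPM per rat with the mean ± SD of 4 rats, for males of batch I and females of batch II. Female ISch lies above female IS in all 3 panels, while female FIDch lies above it throughout in the dentate panel alone.

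From rat to rat, Dnmt3a and the 3 TET genes moved together. With group means removed, their 6 pairwise correlations were 0.80 to 0.90 over the 16 male libraries and 0.40 to 0.79 over the 16 female libraries. Gadd45b was negative with these 4 genes, weakly in males at -0.12 to -0.28, and at -0.38 to -0.53 in females. Uhrf1 was at -0.00 to -0.18 with the 4 in males and at -0.09 to -0.40 in females, so near 0 with some of them. In males, the correlations of Dnmt1, Mbd2 and Uhrf1 with the 4 were between -0.18 and 0.27. In females, Dnmt1 correlated with Tet1 at 0.51, with Dnmt3a at 0.41, with Tet3 at 0.40 and with Tet2 at 0.09, so with 3 of the 4 as closely as some of the 4 with each other. Mbd2 and Uhrf1 were at -0.40 to 0.17 with the 4 in females. Mbd1 correlated with the 4 at -0.07 to 0.32 in males and 0.41 to 0.73 in females. All points share a library and its scaling, so these values describe the libraries.

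In each batch 1 library marked the low end of this set. Male IS replicate 1 was the lowest of 16 males for Dnmt1, Dnmt3a, Tet1, Tet2 and Tet3. Female FIDch replicate 4 was the lowest of 16 females for Dnmt3a, Tet1, Tet2 and Tet3. Both had the highest share of counts on the 13 mitochondrially encoded genes of their batch, at 7.70% in the male (the others 5.81 to 7.52%) and 8.36% in the female (the others 6.57 to 8.04%). In females, the mitochondrial share correlated with the 4 genes at -0.53 to -0.73 over the 16 libraries, and in males at -0.33 to -0.51. Their part in the group differences was not tested beyond leaving these libraries out. Without FIDch replicate 4, the Dnmt3a and Tet3 calls were lost. Without male IS replicate 1, no male gene of the 9 was called.

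**Figure D4:**
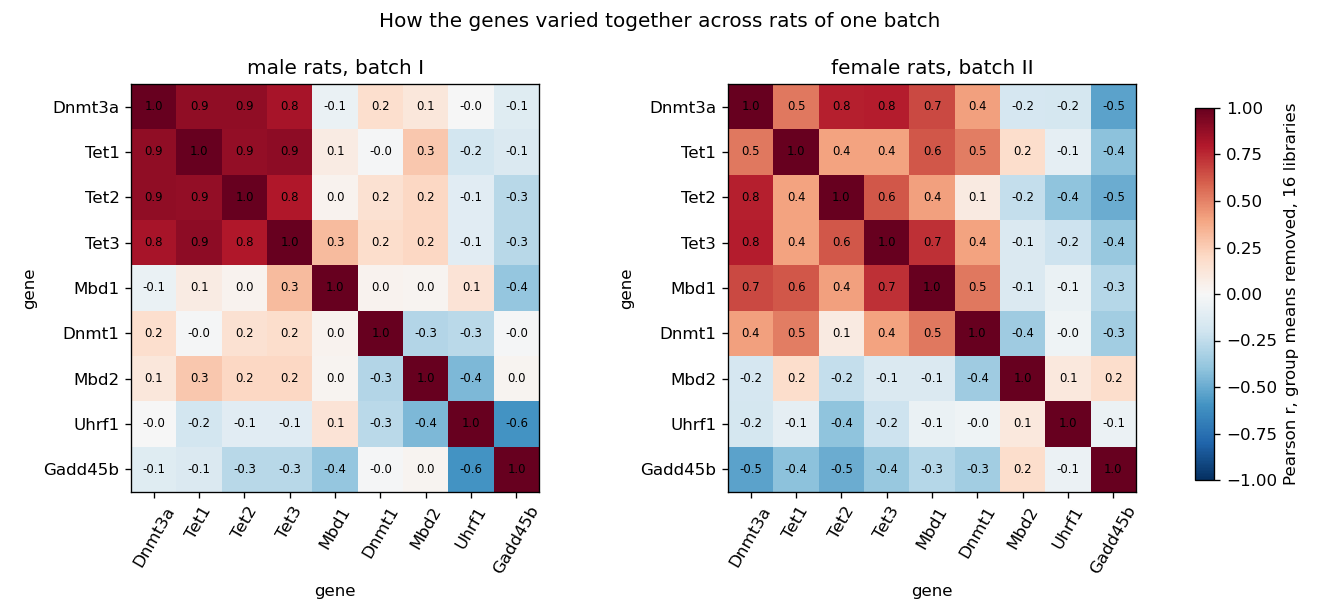
Pearson's r between the 9 genes over 16 libraries in males and 16 in females, on log2 CPM with each group's mean removed. The dark red block at upper left holds Dnmt3a, Tet1, Tet2 and Tet3, at 0.80 to 0.90 in males and 0.40 to 0.79 in females. The Gadd45b values against them are negative in both panels, weakly in males. The Uhrf1 values against them lie between -0.40 and -0.00, some of them near 0.

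For each gene, the most similar pattern among 12626 genes was the one with the highest value of the lower of its male and female correlations. For Dnmt3a it was Cpeb4 (0.91 in males, 0.94 in females), for Tet3 Mib1 (0.93, 0.91), for Tet2 Phlpp2 (0.91, 0.88) and for Tet1 Eif4ebp3 (0.87, 0.81). For Gadd45b it was Jdp2 (0.73, 0.76), for Mbd1 Ube2o (0.73, 0.74), for Mbd2 Styx (0.74, 0.74), for Dnmt1 Hsd3b7 (0.73, 0.68) and for Uhrf1 Mt-nd3 (0.72, 0.68). Each value rests on 16 libraries a batch. The first 4 had the closest companions, and these are the genes that varied together. In females each of the 4 was closer to its companion, at 0.81 to 0.94, than to any other of the 4, at most 0.79. The companions were picked as the closest of 12626 genes. A correlation of this size was thus not particular to the 4 genes among themselves.

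The remaining genes of the pathway were given as a fixed list of 26 symbols, of which 25 were in the tables. The de novo methyltransferase Dnmt3b reached at most 19 counts in a library, and Dnmt3l, Dppa3, Hells and Zbtb33 were at or near 0. Between 20 and 21 entries were tested per comparison, and none had an adjusted p under 0.05 in edgeR. At the study's criterion, 0 to 3 entries were called in each of the 10 pairwise comparisons, beside 4.57 to 13% of all genes, so the list was not shown to stand apart from the background.

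Gadd45g, the relative of Gadd45b, met the study's criterion with a higher level than IS in all 3 female groups, which share the IS rats. The background was 10.3% of all genes in ISch, 6.47% in FID and 8.98% in FIDch, and none of the 3 differences passed the adjustment. It was 5.05, 3.90, 5.02 and 4.62 CPM in IS, 6.46, 6.04, 4.29 and 7.80 in ISch, 5.80, 4.23, 9.95 and 7.57 in FID, and 5.92, 8.42, 5.01 and 8.38 in FIDch. Each of the 3 groups overlapped IS in at least 1 rat. The log2 fold changes were 0.41 in ISch (adjusted p = 0.276), 0.57 in FID (0.340) and 0.58 in FIDch (0.204). At most 224 counts lay behind a value. No male group was called for Gadd45g.

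Cxxc4, which binds unmethylated CpG and is a partner of Tet2, went in opposite directions in the sexes. In ISch against IS it was called higher in males (29.7 to 35.2 against 22.6 to 29.3 CPM, log2 fold change 0.29, adjusted p = 0.389) and lower in females (25.0 to 30.6 against 27.2 to 37.1 CPM, -0.24, adjusted p = 0.253). The female change minus the male change was -0.53 (SE 0.15, edgeR's unadjusted p = 0.00187, adjusted p = 0.0805), where 14.2% of all genes were called. None of the 9 genes was called there, and their 9 differences ran from -0.42 for Tet1 to 0.27 for Gadd45b. In female FIDch against FID, Cxxc4 was called lower at -0.32 (adjusted p = 0.0867), where 12.7% of all genes were called. FIDch at 25.0 to 30.2 CPM lay below FID at 30.4 to 38.4 in every rat, and 11.9% of all genes did not overlap there.

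Zfp57, which protects methylation at imprinted regions, was called lower than IS in female ISch and FID, with log2 fold changes of -0.26 and -0.23. The background there was 10.3 and 6.47% of all genes. It was called higher in female FIDch than in FID (0.24, background 12.7%) and than in ISch (0.28, background 4.57%). These comparisons share groups of rats, and none of the differences passed the adjustment. Its level was 15.4 to 17.6 CPM in IS, 12.2 to 15.9 in ISch, 13.7 to 14.9 in FID, with 14.3 to 19.3 in FIDch females. The female iron by choline term for Zfp57 was 0.50 (SE 0.13, edgeR's unadjusted p = 0.00152, adjusted p = 0.265), where 7.33% of all genes were called. Zbtb4, another reader, gave -0.24 in the same test, and female Setdb1 was called for any difference among the diets.

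In males the calls were on Cxxc4 and on further genes of the list. Mbd6 was called higher in FIDch than in IS and FID, with log2 fold changes of 0.21 and 0.33, and Mbd3 higher in FIDch than FID at 0.20, where 13% of all genes were called. Cxxc5 was called lower in FIDch than IS at -0.21 (background 6.12%), Apex1 lower in ISch than IS at -0.21 (background 8.06%) and Cxxc4 lower in FIDch than ISch at -0.31 (background 8.12%). No entry was called in male FID against IS (background 4.62%). The male iron by choline term called Mbd6, Mbd3 and Apex1 with a positive sign and Cxxc4 with a negative one, at 0.31, 0.31, 0.25 and -0.43 (background 14.4%).

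For the 9 genes themselves, the male comparisons held 0 calls of 9 each, also at an unadjusted p under 0.05 alone and by DESeq2. The background shares were those just given, with 14.3% for any difference among the 4 male diets. The medians of the 9 log2 fold changes were 0.11, 0.04 and 0.13 in male ISch, FID and FIDch against IS, beside -0.00, -0.01 and 0.01 over all genes. In females these medians were -0.00, -0.03 and -0.01. The male comparisons with IS share the same IS rats. Male IS replicate 1 was the lowest of the males for 5 of the 9 genes, so the male medians are not independent of each other or of that rat. No gene of the 9 was called in female FID against IS (background 6.47%) or in FIDch against IS. For the sex difference, the 9 genes also held no call in FID against IS (background 7.64%) and FIDch against IS (background 12.9%).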

How the data were processed

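Hippocampal RNA-seq (TruSeq RNA v2) of 32 rats was used. Per the submitters' processing notes and the methods, the authors checked the reads with FastQC, trimmed them with Trimmomatic, aligned them to Rnor 6.0 with HISAT2 and counted them on genes with featureCounts of Subread. The deposited values are raw counts per gene, neither normalized nor filtered. The strand setting, the treatment of reads with several matches and the annotation version are not given in the sources used here.

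Groups were taken from the labels, and the numbering of rats only names them. The software was edgeR 4.0.16 under R 4.3.3. The study fitted edgeR's negative binomial model separately to each group against IS. Here 10 pairs of groups, some of them not with IS, were each fitted separately, and filterByExpr, TMM normalization and the quasi-likelihood test were chosen for this work. The p-values were Benjamini-Hochberg adjusted over all genes tested. Tests of any difference, of the iron by choline term and of the sex difference used all groups concerned. Levels are CPM over all genes scaled by TMM within a batch of 16 libraries. A two-sided exact permutation test over the 70 splits of 4 against 4 rats, on log2 CPM, was run for each gene. The upper limit for a count of 0 is 3 counts (95% confidence), or 0.315 to 0.853 CPM per male library and 0.113 to 0.163 per female library, which covers counting error only. No pair of replicates agreed within sampling noise (chi-square per gene 2.02 to 25.2 over 48 pairs, on genes with at least 20 counts).

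The 9 genes, the other lists and the tests were chosen with earlier results of these data known. All 9 genes are named in every group, listed pathway genes where they met the study's criterion, and for pattern likeness 1 gene each. The scripts were tested on simulated data. Alternatives were DESeq2 1.42.0, other scalings, no filter, a joint fit of 4 diets, a replicate block, leaving out each rat, and adjusted p as the call rule. Promoter sequences are from RefSeq (GRCr8), and all 9 genes matched.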

Additional observations from a re-analysis of the deposited data

Results flagged for a closer look

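Of the 72 groups of 4 rats screened, 1 held a rat far from the others, and chance does so in about 1 group in 20. Uhrf1 in female ISch replicate 3 was 6.36 CPM, while the other 3 rats were at 5.23 to 5.28 CPM. Its distance to the nearest rat was 0.958 of the group's whole range, above Dixon's critical value for 4 samples at 95%. The cause was not tested. Uhrf1 was not called in any female comparison with or without this rat.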

How the results depend on the processing

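Of 2520 values for single genes under the alternatives, 2483 kept their side of the study's criterion, 16 lost a call, 21 gained one and none reversed a call. Among the 2483, the sign differed in 157 cases, with no call on either side. The Gadd45b call in female ISch against IS was kept in 14 of 14 alternatives (log2 fold change 0.31 to 0.44, adjusted p 0.0288 to 0.204, under 0.05 in 1), and its call for any female difference in 20 of 20 (adjusted p 0.0179 to 0.163, under 0.05 in 4). The counts of genes called out of 9 moved as follows, and the cause was not tested. With adjusted p under 0.05 as the rule, the female counts fell to 0 in ISch against IS, FIDch against FID, FIDch against ISch and for any difference. In female FIDch against FID the count of 1 went to 0 with RLE size factors, library size alone, the 4 diets in one fit and the replicate block. It rose from 0 to 1 in female FIDch against IS with the 4 diets in one fit, in male FIDch against IS with the replicate block (Dnmt3a), and in male FIDch against ISch and the sex difference in FIDch against IS with all genes of at least 1 count. Leaving out 1 rat gave 0 to 1 in male ISch against IS (Dnmt3a, without IS replicate 3), male FIDch against ISch (Uhrf1, without ISch or FIDch replicate 2), the male iron by choline term (Uhrf1, without IS replicate 4), female FID against IS (Gadd45b, without FID replicate 3) and the sex difference in FIDch against IS (Dnmt3a, without male IS replicate 3, male FIDch replicate 1 or female FIDch replicate 3). It gave 0 to 2 in female FIDch against IS, FIDch against FID and the iron by choline term, and 1 to 2 in FIDch against ISch and for any female difference; each highest count came without FIDch replicate 3 except in FIDch against ISch. Replicate numbers did not pair the rats (mean correlation of same-numbered rats -0.03 to 0.01), and the replicate block moved no other count of calls. Low male depth limits Tet1, Uhrf1 and Gadd45b most, with as few as 23, 24 and 34 counts in a library.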
